A study of Mus musculus with 4 samples.

Results

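The dorsal homeobox genes described are *Lbx1*, *Gsx1*, *Gsx2*, *Gbx1*, *Gbx2*, *Hmx2*, *Hmx3*, *Barhl1* and *Barhl2*, 9 of the 24421 genes in the deposited table, chosen by their symbols. RNA was sequenced from mouse neural tube cells that were sorted for GFP at E11.5. In the *Prdm13GFP* allele, GFP with a stop codon is knocked into exon 1 of *Prdm13*, so that GFP marks the *Prdm13* lineage and no PRDM13 is made from the allele. Embryos with 1 such allele, *Prdm13GFP/+*, are called Het, and embryos with the allele on both chromosomes, *Prdm13GFP/GFP*, are called Homo, and both groups thus carry the knockin, with no wild-type group. RNA of 7 Het embryos formed 1 pool and RNA of 9 Homo embryos another, and each pool gave 2 libraries, which are technical replicates. All SDs are over these 2 libraries, and they and all p-values hold no variation between embryos. The strains with this allele had been interbred, and the sort took GFP+ cells of the whole dissected neural tube, of which neither the rostral limit nor the cell types are given in the labels. In such bulk RNA, fewer cells of a type and less RNA of a gene per cell cannot be told apart.

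Neurons of the dorsal neural tube arise from progenitor domains stacked below the roof plate and fall into 6 classes, dI1 to dI6 from dorsal to ventral, each with its own set of homeodomain proteins. The bHLH factor PTF1A, with PRDM13 acting as a zinc finger repressor downstream of it, favours inhibitory dI4 neurons over excitatory dI5 neurons. Of the genes described here, *Gsx1* and *Gsx2* are expressed in dorsal progenitors, *Lbx1* marks dI4, dI5 and dI6 neurons, *Gbx1* marks inhibitory neurons of the dorsal horn, and *Barhl1* and *Barhl2* mark dI1 neurons, which descend from *Atoh1* progenitors. *Gbx2* is best known for its role at the midbrain-hindbrain boundary and is also expressed in the spinal cord. *Hmx2* and *Hmx3*, neighbours on chromosome 7, are best known for their roles in the inner ear and hypothalamus and are also expressed in interneurons. The study asked which genes depend on PRDM13 in this lineage, and the comparison of Homo with Het addresses that question here for these genes.

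Promoter sequence from RefSeq (GRCm38.p6, the build of mm10) was at hand for 7 of the 9 genes, in 9 windows of 300 bases, each with 250 bases before a start of transcription. *Lbx1* and *Gbx1* had no window. The windows below belong to both *Gsx* genes, *Gbx2* and *Hmx2*, and are shown because their RNA was lower in Homo and because they hold an E-box, the short motif that bHLH factors bind. Each is written 5′ to 3′ on the strand of the gene, with every CANNTG in capitals.
Gsx1, chr5:147188446-147188745, plus strand: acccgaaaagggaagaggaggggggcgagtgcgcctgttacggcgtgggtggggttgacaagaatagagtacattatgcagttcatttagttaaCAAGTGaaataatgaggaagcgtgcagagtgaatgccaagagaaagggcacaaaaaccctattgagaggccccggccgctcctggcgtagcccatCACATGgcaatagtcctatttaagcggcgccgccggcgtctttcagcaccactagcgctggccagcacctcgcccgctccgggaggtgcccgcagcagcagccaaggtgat
Gsx2, chr5:75075351-75075650, plus strand: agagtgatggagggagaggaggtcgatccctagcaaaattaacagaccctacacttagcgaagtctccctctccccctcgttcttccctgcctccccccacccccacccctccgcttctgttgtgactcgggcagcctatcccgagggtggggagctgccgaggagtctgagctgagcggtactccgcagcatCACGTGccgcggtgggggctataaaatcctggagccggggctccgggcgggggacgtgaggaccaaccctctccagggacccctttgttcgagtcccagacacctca
Gbx2, chr1:89931127-89931426, minus strand: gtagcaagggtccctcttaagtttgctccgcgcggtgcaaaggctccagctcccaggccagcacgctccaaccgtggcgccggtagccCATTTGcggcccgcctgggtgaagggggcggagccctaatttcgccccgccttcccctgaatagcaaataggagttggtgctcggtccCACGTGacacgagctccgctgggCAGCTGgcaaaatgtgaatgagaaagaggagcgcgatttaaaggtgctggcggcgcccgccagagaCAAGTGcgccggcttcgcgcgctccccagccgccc
Hmx2, chr7:131548507-131548806, plus strand: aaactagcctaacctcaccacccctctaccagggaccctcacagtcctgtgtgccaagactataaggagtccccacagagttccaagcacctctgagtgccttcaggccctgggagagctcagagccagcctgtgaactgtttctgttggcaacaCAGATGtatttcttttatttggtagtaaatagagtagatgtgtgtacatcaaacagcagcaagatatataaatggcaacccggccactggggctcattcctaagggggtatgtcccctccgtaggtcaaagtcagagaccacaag
The motif CANNTG, which reads the same on both strands, stood in 7 of the 9 windows, and in 72.3% of 32851 promoter windows of that length over all genes. Its form CAGCTG stood in 3 of the 9, those of *Gbx2* and both of *Barhl1*, against 16.3% of all windows. CATCTG, searched on both strands, was found only in the *Hmx2* window shown, where it reads CAGATG, against 17.2% of all windows. CACGTG stood in the windows of *Gsx2*, *Gbx2* and *Barhl2*, against 7.15% of all. All 3 of these forms are also matches to CANNTG. The homeodomain core TAATTA stood in 1 window, of *Barhl1*, against 5.29% of all. The window of *Hmx3* and the second window of *Hmx2* held none of these motifs. Both lie inside the gene spans given below and not at their 5′ ends, as do both windows of *Barhl1*. No window at the 5′ end of the span was at hand for *Hmx3* or *Barhl1*. These matches describe letters in the windows and no binding was measured here.

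Expression was given as RPKM, reads scaled to exon length and to library size, as normalized by the authors. Whole reads could be recovered from the values, and they summed to at least 11640640 and 18511399 in Het libraries 1 and 2 and to 16528360 and 13981037 in Homo libraries 1 and 2. For genes with many reads these are the smallest whole numbers that the values allow, so they are given as minima, and counts cover counting error only. Genes with a mean of at least 1 RPKM in either genotype, 12046 in all, were compared with limma on log2(RPKM + 0.1), and fold changes on that scale understate the change of genes with low values. A gene was called higher or lower in Homo at an adjusted p under 0.05 over all genes tested and a fold of at least 1.5. Where single values were compared by exact permutation, with 2 libraries in each genotype, the smallest possible two-sided p was 0.333.

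The labels were checked first. *Prdm13* had 114 and 127 RPKM in Het and 310 and 324 RPKM in Homo, a log2 fold change of 1.40 (SE 0.0613, limma adjusted p = 3.63e-05). Since the transcript of the GFP allele is counted with the gene, this level does not report how much PRDM13 is made. The neural tube markers *Sox2*, *Pax3* and *Pax7* and the neuronal *Tubb3* and *Elavl3* were all well above 1 RPKM in every library. Of the markers of the sorted cells, *Ptf1a* was called higher and *Lbx1* lower, and both are given further on. The 5 others stayed within a fold of 1.5 between genotypes and so were not called, although *Sox2* and *Pax7* were lower in both Homo libraries, with log2 fold changes of -0.48 and -0.35 (limma adjusted p = 0.00214 and 0.0102), and *Tubb3* and *Elavl3* were higher in both, with 0.34 and 0.17 (limma adjusted p = 0.00688 and 0.0463). The libraries of a genotype were close, with a median absolute log2 difference of 0.0783 in Het and 0.0776 in Homo over the genes tested.

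Of the 9 dorsal homeobox genes, 7 had enough RNA to be tested, and these 7 were called lower in Homo. In the same test 2.67% of the 12046 genes were called lower and 3.65% higher, and 0 of the 7 were called higher. *Barhl1* and *Barhl2* stayed under 1 RPKM in every library and were not tested. Of the 7, 6 had a mean of at least 1 RPKM in both genotypes, and *Hmx2* passed only through its Het level. Both Het libraries lay above both Homo libraries for 8 of the 9 genes, all but *Barhl2*, as they did for 30.3% of the genes tested. The 7 genes had a median log2 fold change of -1.51, beside 0.01 over all genes tested. The study itself singled out *Hmx2*, *Hmx3*, *Gsx2*, *Gbx2* and *Gsx1* from these libraries, so their direction is not independent evidence. When all 24421 genes were tested with no filter on RPKM, 0 of the 9 passed at adjusted p under 0.05 (limma, from 0.0509 for *Gbx2* to 0.212 for *Lbx1* among the 7), while 7 had an unadjusted p under it. With limma voom on the recovered reads, the 7 were called lower.

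**Figure D1:**
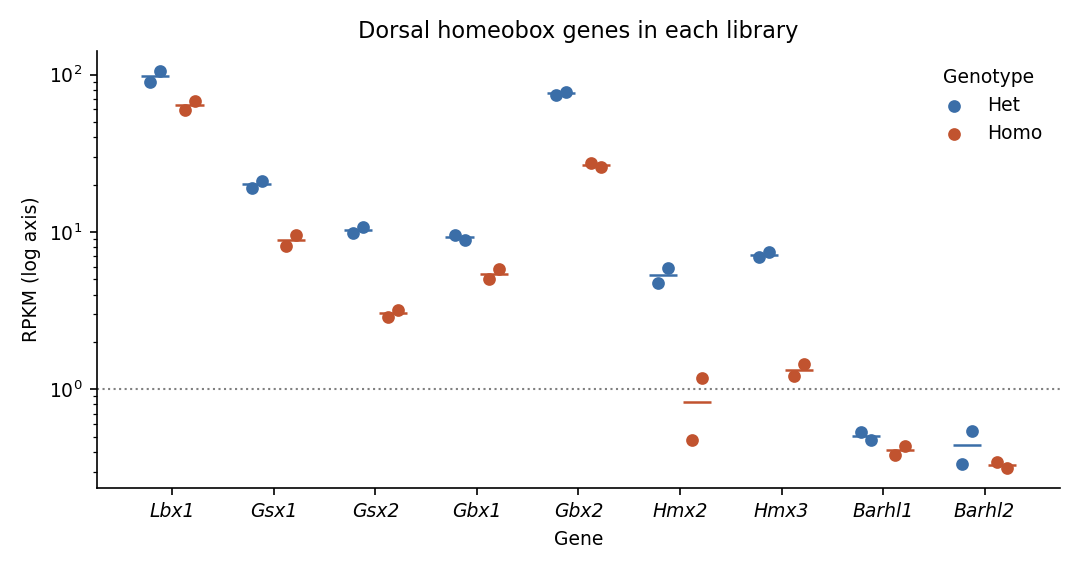
RPKM of each dorsal homeobox gene on a log axis, with 1 point per library, a bar at the mean of the 2 libraries of a genotype, and a dotted line at 1 RPKM. *Lbx1* and *Gbx2* are the most abundant in both genotypes, and the Het points lie above the Homo points for every gene but *Barhl2*.

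The *Gsx* genes encode homeodomain factors of dorsal progenitors. *Gsx1* (gene ID 14842, chr5:147188696-147190947) had 19.1 and 21.2 RPKM in Het and 8.12 and 9.61 RPKM in Homo. These values rest on at least 391 and 688 reads in Het and 234 and 233 in Homo. Both Homo libraries lay well under both Het libraries, and the groups did not overlap. The mean fell from 20.1 ± 1.5 to 8.87 ± 1.05 RPKM, a fold of 2.27 and a log2 fold change of -1.18 (SE 0.0957, limma adjusted p = 0.00053). *Gsx2* (gene ID 14843, chr5:75075601-75077893) had 9.81 and 10.7 RPKM in Het and 2.88 and 3.21 RPKM in Homo. The groups were far apart relative to the spread within them. On average *Gsx2* fell from 10.3 ± 0.643 to 3.04 ± 0.229 RPKM, a fold of 3.37 and a log2 fold change of -1.72 (SE 0.0903, limma adjusted p = 8.04e-05). *Pax3*, a gene of all dorsal progenitors, had 74.6 ± 0.884 RPKM in Het and 70.0 ± 0.103 RPKM in Homo and was not called. Of 9 dorsal progenitor genes tested, *Ptf1a*, *Neurog1* and *Neurog2* were called higher and *Msx1* and *Msx2* lower.

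The *Gbx* genes encode homeodomain factors that share a family and differed here in level. *Gbx2* (gene ID 14472, chr1:89927962-89931176) had 74.1 and 77.7 RPKM in Het and 27.3 and 25.8 RPKM in Homo. Both Homo libraries lay well below both Het libraries, with little spread in either genotype. The mean fell from 75.9 ± 2.51 to 26.5 ± 1.03 RPKM, a fold of 2.86 and a log2 fold change of -1.51 (SE 0.0537, limma adjusted p = 1.78e-05). It had the smallest standard error of the 7 and at least 375 reads in each library. *Gbx1* (gene ID 231044, chr5:24504426-24526848), a marker of dorsal inhibitory neurons, had 9.52 and 8.91 RPKM in Het and 5.0 and 5.79 RPKM in Homo. The groups did not overlap, and the gap between them was smaller than for *Gbx2*. On average *Gbx1* fell from 9.21 ± 0.434 to 5.39 ± 0.560 RPKM, a fold of 1.71 and a log2 fold change of -0.76 (SE 0.0913, limma adjusted p = 0.00271). Its 95% interval, -0.98 to -0.55, took in a fold of 1.5, and limma's treat test against that fold did not call it.

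*Lbx1* (gene ID 16814, chr19:45232684-45236841), the marker shared by dI4, dI5 and dI6 neurons, had the highest level of the 9 genes and the smallest called change. It had 89.3 and 106 RPKM in Het and 59.7 and 68.1 RPKM in Homo. The lower Het library lay above the higher Homo library, by less than for the *Gsx* genes. Its mean fell from 97.6 ± 11.8 to 63.9 ± 5.98 RPKM, a fold of 1.53 and a log2 fold change of -0.61 (SE 0.0960, limma adjusted p = 0.00759). The call was lost without Het replicate 2 (log2 fold change -0.49, limma adjusted p = 0.0527), without Homo replicate 1 (-0.51, limma adjusted p = 0.0653) and under treat. Where 1 library of a genotype was left out, the gene's own spread came from the other genotype and the lone library was taken to vary likewise. The 95% interval of its fold change, -0.84 to -0.38, took in a fold of 1.5.

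*Hmx2* and *Hmx3* had the largest fold changes of the 9 genes. *Hmx3* (gene ID 15373, chr7:131541532-131546027) had 6.89 and 7.47 RPKM in Het and 1.21 and 1.44 RPKM in Homo. The Homo libraries held at least 27 reads each, against at least 109 and 187 in Het, and the groups were widely separated. The mean fell from 7.18 ± 0.407 to 1.33 ± 0.162 RPKM, a fold of 5.40 and a log2 fold change of -2.35 (SE 0.122, limma adjusted p = 7.6e-05). *Hmx2* (gene ID 15372, chr7:131548757-131558014) had 4.76 and 5.89 RPKM in Het and 0.479 and 1.18 RPKM in Homo. The 2 Homo libraries, with at least 13 and 27 reads, differed from each other by 1.15 on the log2 scale, the widest gap between replicates among these genes, yet both were far under Het. On average *Hmx2* fell from 5.32 ± 0.794 to 0.831 ± 0.498 RPKM, a fold of 6.41 and a log2 fold change of -2.65 (SE 0.352, limma adjusted p = 0.00411). Its call was lost without Het replicate 2 (-2.50, limma adjusted p = 0.0565), a fit in which the spread of the gene came from these 2 Homo libraries. With a pseudocount of 1, the log2 fold changes of both *Hmx2* and *Hmx3* were -1.81, and both were still called lower. Among the 12046 genes ordered from the most negative fold change, *Hmx2* stood at 19, *Hmx3* at 39, *Gsx2* at 75, *Gbx2* at 98, *Gsx1* at 137, *Gbx1* at 264 and *Lbx1* at 384.

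**Figure D2:**
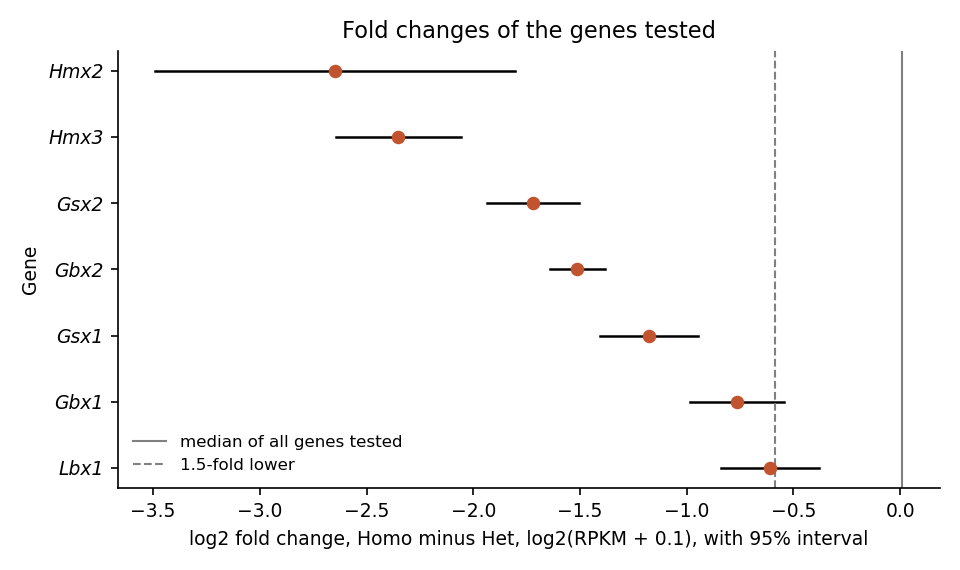
Log2 fold change of the 7 genes tested, Homo minus Het on log2(RPKM + 0.1), as points with 95% intervals, beside the median of all genes tested and the 1.5-fold line. The intervals of *Lbx1* and *Gbx1* reach across the 1.5-fold line, and those of the other genes lie beyond it.

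*Barhl1* and *Barhl2*, the dI1 genes of the set, were low in every library. *Barhl1* (gene ID 54422, chr2:28907680-28917984) had 0.538 and 0.473 RPKM in Het and 0.383 and 0.436 RPKM in Homo, on an estimated 22 to 32 reads a library. The Het libraries lay above the Homo libraries by less than they did for any of the 7 called genes, with a log2 difference of -0.25. *Barhl2* (gene ID 104382, chr5:106452523-106458166) had 0.336 and 0.542 RPKM in Het and 0.346 and 0.316 RPKM in Homo, on 9 to 23 reads, and the groups overlapped. With no filter on RPKM, the difference had a 95% interval of -0.83 to 0.33 for *Barhl1* and of -1.27 to 0.68 for *Barhl2* (limma adjusted p = 0.653 and 0.713). With these values neither a fall by a fold of 1.5 nor no change could be set apart for either gene. *Atoh1*, the progenitor gene of dI1 neurons, was at 0.280 to 0.783 RPKM and *Lhx9*, a dI1 homeodomain gene, at 0.152 to 0.267 RPKM, so these dI1 genes were low in the sorted cells of both genotypes. *Lhx2*, also a dI1 gene, had 0.651 ± 0.010 RPKM in Het and 1.45 ± 0.110 in Homo and was called higher (limma adjusted p = 0.0228).

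In Het the levels fell in the order *Lbx1*, *Gbx2*, *Gsx1*, *Gsx2*, *Gbx1*, *Hmx3*, *Hmx2*, *Barhl1*, *Barhl2*. In Homo the order was the same but for *Gbx1*, which stood above *Gsx2*. In Het, *Barhl1* and *Barhl2* were the only neighbours in this order whose libraries overlapped, and in Homo no neighbours overlapped, although the *Hmx2* libraries reached from just under *Hmx3* to just above *Barhl1*. Added up, the 9 genes had 214 and 239 RPKM in Het and 105 and 116 RPKM in Homo. *Lbx1* made up 41.7 and 44.4% of that sum in Het and 56.6 and 58.8% in Homo, and *Gbx2* 34.6 and 32.5% in Het and 25.9 and 22.3% in Homo.

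Paralogs of a family were set against each other within each library. Ratios are of RPKM, whereas the log2 differences and permutation tests use log2(RPKM + 0.1). *Gsx1* exceeded *Gsx2* by a ratio of 1.94 and 1.98 in Het and of 2.82 and 3.0 in Homo, a log2 difference of 0.55 in the ratio. *Gbx1* stood to *Gbx2* at 0.128 and 0.115 in Het and at 0.183 and 0.225 in Homo, a log2 difference of 0.75. For both families the libraries of the genotypes did not overlap, so *Gsx2* and *Gbx2* were the paralogs with the larger relative fall in these libraries. The exact two-sided permutation p was 0.333 for each, the smallest that the design allows, and 0.667 when adjusted over the 4 pairs. The ratio of *Hmx2* to *Hmx3* was 0.691 and 0.788 in Het and 0.394 and 0.819 in Homo, and that of *Barhl1* to *Barhl2* was 1.60 and 0.872 in Het and 1.11 and 1.38 in Homo. The genotypes overlapped for these 2 pairs (exact permutation p = 1 for each), and the sign of their difference turned when single libraries were left out.

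**Figure D3:**
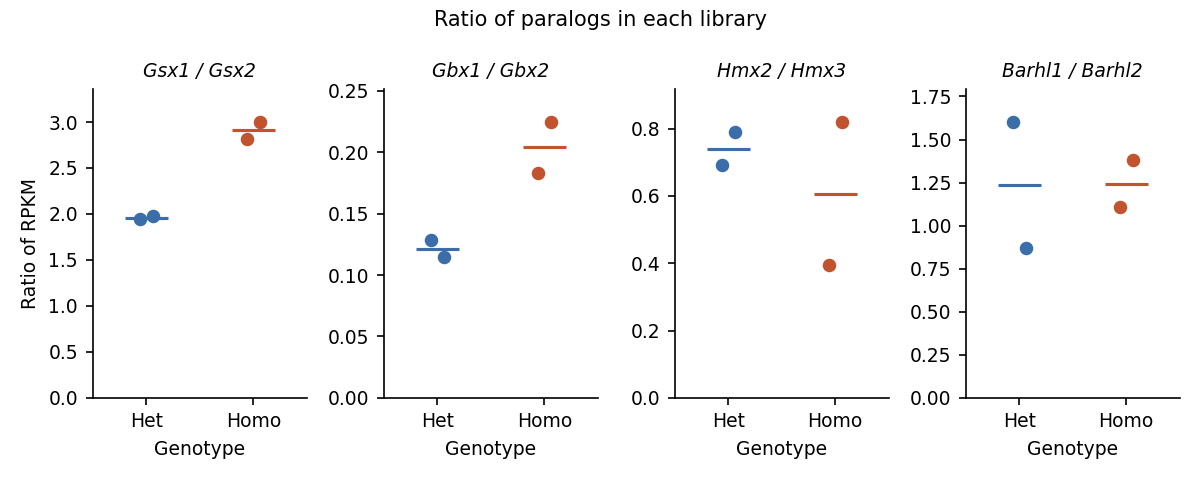
Ratio of the RPKM of 2 paralogs in each library, with 1 point per library and a bar at the mean of a genotype. The Homo points lie above the Het points for *Gsx1* to *Gsx2* and for *Gbx1* to *Gbx2*, and overlap with them for the *Hmx* and *Barhl* pairs.

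Beside the dorsal classes, the homeobox genes were compared with lists of other genes known for each class, which share some genes and were chosen with results of these data known. The dI4 list holds 9 genes, and 8 were called lower, with a median log2 fold change of -2.48. Among them, *Pax2*, a dI4 transcription factor, had 113 ± 9.08 RPKM in Het and 18.2 ± 0.624 RPKM in Homo, and *Gad2*, an enzyme of GABA synthesis, had 25.3 ± 0.495 and 4.10 ± 0.038 RPKM. The exception was *Ptf1a*, which was called higher at 16.0 ± 1.41 RPKM in Het and 56.5 ± 2.98 RPKM in Homo. Against this, *Lbx1*, which dI4 shares with dI5 and dI6, fell by 0.61 on the log2 scale and the inhibitory marker *Gbx1* by 0.76. In the dI5 list all 6 genes were called higher, with a median of 2.26, and *Tlx1* among them passed the filter only through Homo. They include *Tlx3*, a factor of excitatory neurons, which had 5.13 ± 0.710 RPKM in Het and 90.1 ± 5.59 RPKM in Homo, and *Lmx1b*, which had 1.86 ± 0.026 and 21.6 ± 0.898 RPKM. In the dI6 list of 6 genes 5 were tested, of which *Bhlhe22* was called higher and *Dmrt3*, *Pax2*, *Lhx1* and *Lhx5* lower. *Lbx1* thus had a value between those of the dI4 and dI5 genes, and its libraries do not separate the classes that share it.

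*Lbx1* is not expressed in the more dorsal classes. Of their lists, dI2 was mixed, and all genes tested in dI1 and dI3 were called higher. In the dI1 list 2 of 4 genes were tested, *Lhx2* and *Pou4f1*, and both were called higher, *Lhx2* having passed the filter only through Homo, whereas *Barhl1* and *Barhl2* gave no call. In the dI2 list of 6 genes, *Pou4f1*, *Neurog1* and *Neurog2* were called higher and *Foxd3*, *Lhx1* and *Lhx5* lower. In the dI3 list the 4 genes *Isl1*, *Tlx3*, *Prrxl1* and *Pou4f1* were called higher, with a median of 2.31. Of the 29 genes tested over all lists of the dorsal neural tube, each counted once, 12 were called higher and 13 lower. Called genes of both directions thus stood in these lists. The 7 homeobox genes tested, which are not counted in these lists, had the direction of the lower ones.

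**Figure D4:**
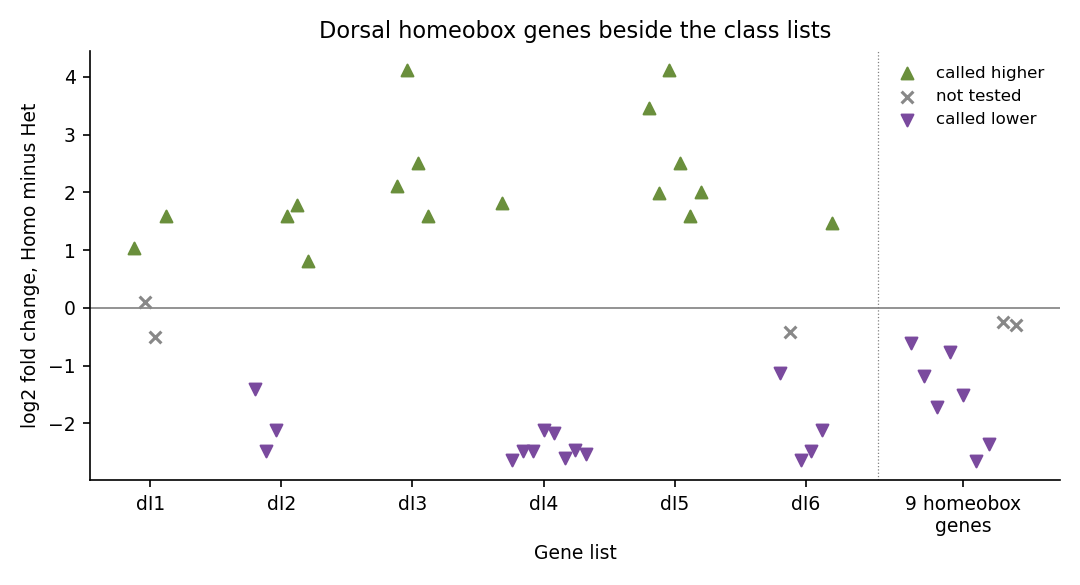
Log2 fold change, Homo minus Het on log2(RPKM + 0.1), of each gene in the lists of classes dI1 to dI6 and of the 9 homeobox genes, with triangles for genes called higher or lower and crosses for genes not tested. The dI3 and dI5 genes lie above 0, the dI4 genes below 0 but for *Ptf1a*, and the homeobox genes below 0.

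The genes of PTF1A and PRDM13 activity in these cells form a further list of 14, of which 7 were called higher and 3 lower. Genes of the partners of PTF1A were not called. *Rbpj* had 35.5 ± 0.752 RPKM in Het and 35.5 ± 1.2 in Homo, and *Tcf3*, *Tcf4* and *Tcf12*, which encode E proteins, had log2 fold changes of 0.06, -0.04 and -0.20. *Tcf12* was lower in both Homo libraries and missed a call only by its fold (limma adjusted p = 0.0217). *Prdm13*, *Ptf1a*, *Neurog1*, *Neurog2*, *Tlx1*, *Tlx3* and *Lmx1b* were higher, and *Pax2*, *Lhx1* and *Lhx5* lower. The 7 homeobox genes called lower stood on the side of *Pax2*, *Lhx1* and *Lhx5*.

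The state of the sorted cells was described with lists of progenitor and neuronal genes. Of 14 neural progenitor genes 1 was called, *Sox1*, which was lower, with a median log2 fold change of 0.05. Of 13 pan-neuronal genes, *Stmn2*, *Nefl*, *Nefm* and *Gap43* were called higher and *Snap25* lower, with a median of 0.20. Markers of other cells that could enter the sort were measured too. *Sox10*, a gene of neural crest and its glia, had 0.255 and 0.603 RPKM in Het and 0.680 and 0.781 RPKM in Homo and was not tested. The list of dorsal root ganglion and crest genes is reported only in part, and no sum is given for it. The 6 erythroid genes summed to 47.2 and 47.9 RPKM in Het and to 49.7 and 48.6 RPKM in Homo, led by *Hbb-y*, with *Hba-a1* at 0 in all libraries. *Hbb-y* alone had 23.7 and 26.1 RPKM in Het and 28.3 and 26.7 RPKM in Homo, a level above that of *Gsx1* in both genotypes, and was not called. The 5 mesenchymal genes summed to 3.79 and 4.06 RPKM in Het and to 2.94 and 2.76 RPKM in Homo, led by *Col1a2*. The 5 endothelial genes summed to 2.1 to 3.15 RPKM, led by *Cldn5* on the mean of each genotype. The 4 microglial genes summed to at most 0.264 RPKM. The 7 genes of more rostral brain could bear on *Gbx2*. They summed to 0.145 and 0.187 RPKM in Het and to 0.320 and 0.387 RPKM in Homo. By the mean of a genotype, *En2* led in Het at 0.068 RPKM and *Otx1* in Homo at 0.097 RPKM. *Otx2* and *Emx2* were at 0 in all libraries. The part of these genes in the fall of the homeobox genes was not tested.

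The genes next to each homeobox gene on the chromosome were read from RefSeq on GRCm38. *Hmx3* and *Hmx2* lie 2730 bases apart and both fell. On the other side of *Hmx2*, at 2353 bases, *Bub3*, a gene of the mitotic checkpoint, had 92.9 ± 0.663 RPKM in Het and 80.2 ± 3.89 in Homo, a log2 fold change of -0.21, and was not called. *Agap3*, 2379 bases from *Gbx1*, had a log2 fold change of 0.35 and was not called. The nearest listed gene below *Lbx1*, at 75741 bases, is *Tlx1*, a homeobox gene of excitatory neurons, which had 0.936 and 0.914 RPKM in Het and 3.85 and 4.07 RPKM in Homo. *Tlx1* was called higher (log2 fold change 1.98, SE 0.136, limma adjusted p = 0.000275), so the adjacent pair *Tlx1* and *Lbx1* moved in opposite directions. Apart from *Tlx1* and the *Hmx* pair themselves, no nearest gene of the 9 was called, 5 of them being under the filter on RPKM. Among those tested were *Chic2* beside *Gsx2* at -0.24, *Polr1d* beside *Gsx1* at 0.20, *Agap1* beside *Gbx2* at -0.05 and *Ddx31* beside *Barhl1* at -0.14 on the log2 scale.

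The genes whose values over the 4 libraries were most like each homeobox gene were found by the Euclidean distance between log2(RPKM + 0.1) values centred on their mean. For *Lbx1* they were *Lyst*, *Kcnip2* and *Speg*, at distances of 0.0326 to 0.0641, and the first 2 of these were not called. For *Gsx1* they were *Rasgrp2*, *Cdk6* and *Cygb*, and for *Gsx2* they were *Nrgn*, *Rph3a* and *Syndig1*. For *Gbx1* they were *Acyp2*, *Rgs8* and *Arid5b*, and for *Gbx2* they were *Clstn2*, *Ppp1r17* and *Rftn1*. For *Hmx3* they were *Myo5b*, *March4* and *Slc32a1*, at 0.112 to 0.132, and for *Hmx2* they were *Chac1*, *Slc6a5* and *Hmx3*, at the wider distances of 0.486 to 0.723. *Slc32a1*, the vesicular transporter of inhibitory transmitters, and *Slc6a5*, a glycine transporter, also stand in the dI4 list. Within the set, the closest pairs were *Gsx2* with *Gbx2* at 0.267 and *Lbx1* with *Gbx1* at 0.287, and both were closer than the paralogs *Gsx1* and *Gsx2* at 0.549 or *Gbx1* and *Gbx2* at 0.785. With 4 libraries of 2 pools, a small distance means chiefly a similar difference between genotypes.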

How the data were processed

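GFP+ cells of E11.5 neural tubes were compared between Het and Homo, with 2 technical libraries of 1 RNA pool in each genotype. The authors aligned reads to mm10 with TopHat2 2.1.0, counted them on RefSeq exons with featureCounts, normalized them by TMM in edgeR 3.6.8 and deposited RPKM. From these values, log2(RPKM + 0.1) was fitted with lmFit and eBayes with a trend (limma 3.58.1, R 4.3.3) over the 12046 genes whose mean RPKM reached 1 in Het or in Homo, two-sided, with Benjamini-Hochberg adjustment. Other values were computed in Python 3.11.15. The fit and the recovery of reads were tested on simulated data. Whole reads, at least 3 of which were taken as the limit of detection in a library, came out for 99.9% of 19200 genes above 0. Only 26.8% of 18428 exon lengths solved with them lay within 5% of the GENCODE length. Recovered reads are minima for genes with many reads and estimates for genes with few, and the main test does not use them.

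Genes named are the 9 homeobox genes, those of the class, network, state and cell marker lists, *Prdm13*, the 3 genes most alike and the nearest gene on each side. Genes and lists were chosen with earlier results of these data known. Some list genes are not reported here, for a reason unrelated to their values, and were removed once values were known. This took 1 gene each from the dorsal progenitor, network and neural tube marker lists and 2 from the dorsal root ganglion list, and none from dI1 to dI6 or the state lists. Alternatives changed the pseudocount, filter, scaling, variance prior, call rule, block, values and libraries. ChIP-seq data were not analysed here.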

Additional observations from a re-analysis of the deposited data

How the results depend on the processing

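The filter on RPKM moved the calls most. With no filter, 30 genes were called higher and 14 lower, 0 of the homeobox genes were called lower (7 at an unadjusted p under 0.05), and 3 genes of the dorsal class lists were called lower and 2 higher, beside 440, 322, 7, 13 and 12 in the main test. The setting adds genes near 0 RPKM to the fit, and their part in the loss was not tested. With treat against a fold of 1.5, 131 genes were called higher and 77 lower. Leaving out 1 library at a time gave 258 to 437 genes higher and 212 to 266 lower, the fewest of each without Homo replicate 2, and the cause was not tested. The 7 fold changes stayed negative under all 15 alternatives, but this was largely fixed beforehand. A change of filter, variance prior, call rule or block left each fold change as it was. For these genes both Het libraries lay above both Homo libraries, so neither another pseudocount nor leaving out a library could turn the sign. The difference of the *Hmx2* to *Hmx3* ratio, -0.29 in the main test, was 0.0028 with a pseudocount of 1 and ran from -0.75 to 0.16 when single libraries were left out, and that of *Barhl1* to *Barhl2*, 0.05, ran from -0.31 to 0.41. The replicate numbers did not pair the libraries (correlation of same-numbered deviations 0.0475), and with the replicate number as a block 459 genes were called higher and 342 lower, with the 7 homeobox genes lower. Median ratio scaling and quantile normalization moved the median of all genes from 0.0104 to 0.0067 and -0.0062. A fit without 1 library takes the spread of the lone library from the other genotype. *Barhl1* and *Barhl2* had an estimated 9 to 32 reads a library.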

Other observations

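Other homeobox genes of the same superclass were listed beside the 9 genes. Of 51 such genes 9 were tested, and *Tlx1*, *Tlx3*, *Dbx1* and *Dlx3* were called higher and *Nkx1-1*, *Msx1* and *Msx2* lower in Homo, so that calls of both directions occurred in this list, with a median log2 fold change of 0.25. *Tlx1*, *Dbx1* and *Dlx3* passed the filter on RPKM only through Homo, where they are high, so the counts of each direction depend on that filter. *Msx3*, a gene of dorsal progenitors, was the most abundant of them in Het, at 88.5 and 92.0 RPKM, with 84.0 and 82.6 RPKM in Homo, and was not called. *Nkx1-1* had 3.66 and 4.46 RPKM in Het and 1.72 and 2.27 RPKM in Homo, without overlap (log2 fold change -1.0, limma adjusted p = 0.00936). *Dbx1*, a gene of progenitors below the dorsal domains, had 0.208 and 0.368 RPKM in Het and 1.42 and 1.58 RPKM in Homo (log2 fold change 2.08, limma adjusted p = 0.00889). The closest relatives of the 9 genes were nearly absent from the sorted cells. *Lbx2* was at 0.106 to 0.268 RPKM and *Hmx1* at 0.048 to 0.181 RPKM, and 8 genes of the list were at 0 in all libraries. Roof plate genes were mostly under the filter, and 2 of 8 were tested, *Wnt1* and *Msx1*, both called lower, *Wnt1* having passed the filter only through Het (log2 fold changes -0.87 and -0.69, limma adjusted p = 0.0202 and 0.0149).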
